A study of Mus musculus with 21 samples.

Results

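Kit, Cd7 and Car2 are 3 genes whose transcripts differed strongly with transforming growth factor beta (TGFB) in cultured mouse CD4 T cells, and they are described here together with Kitl, which encodes the ligand of the receptor Kit. Kit, Cd7 and Car2 were chosen because their measured levels were raised by TGFB in hCD2-negative or Foxp3-/- cells, and Kitl was added for its role. They are 4 of the 14860 genes tested, and each had 1 transcript cluster of its own on the array. Values of the contrasts that chose the first 3 genes are therefore given as a description, with no test.

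All samples were sorted cells from splenocyte cultures of Marilyn mice, which carry a transgenic T cell receptor for a male antigen, and all were activated in culture. In Marilyn.Foxp3hCD2 mice, human CD2 (hCD2) on the cell surface reports expression of Foxp3, the transcription factor of regulatory T cells. Reporter cells given TGFB were sorted as CD4+hCD2+ (5 arrays) or CD4+hCD2- (5 arrays), and untreated reporter cells (5 arrays) carry the cell type label CD4+CD2. Marilyn.Foxp3-/- cells given TGFB (3 arrays) and untreated Marilyn.Foxp3-/- cells (3 arrays) also carry the label CD4+CD2, and the labels do not say which part of Foxp3 is disrupted. Replicates 1 to 3 of each reporter group are labelled study 1, while their replicates 4 and 5, and every knockout array, are labelled study 2. Ages, numbers of animals per sample and culture times were not given in the sources used here.

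Kit is a receptor tyrosine kinase of the class III family. Binding of its ligand, stem cell factor (Kitl), pairs the receptors and starts signalling through adaptors such as Gab2 and Grb2, phosphoinositide 3-kinase and the Ras pathway. Kit is best known from haematopoietic progenitors, mast cells, melanocytes and germ cells, and within lymphocytes from early thymocytes and innate lymphoid cells. CD7 is an immunoglobulin-superfamily glycoprotein on the surface of T cells, NK cells and their precursors, and proteins of the SECTM1 family bind it. Car2 encodes carbonic anhydrase II, a cytosolic enzyme that interconverts carbon dioxide and bicarbonate, and it is best known from red blood cells, osteoclasts and kidney epithelium.

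The values are log2 expression levels, 1 per transcript cluster and array. Array medians ranged over 6.05 to 6.48 for the 15 reporter arrays and 6.83 to 7.08 for the 6 knockout arrays. The genotypes may have been normalized separately, so levels are compared across genotypes only as percentiles of the same cluster within its own array. The interquartile range of 4 reporter arrays was below 2.5 (hCD2-positive replicate 3 and hCD2-negative replicates 1, 3 and 4), and so was that of 3 knockout arrays (TGFB replicate 1 and untreated replicates 1 and 2). Fits without the narrow reporter arrays keep those of the knockout. They leave 2 hCD2-negative arrays beside 4 hCD2-positive and 5 untreated reporter arrays, which lowers what can be called. The cluster shared by Foxp3 and its neighbour Flicr was at 9.23 to 11.68 in TGFB hCD2-positive cells, 6.35 to 7.08 in TGFB hCD2-negative cells and 5.95 to 6.54 in untreated reporter cells. It was at 8.26 to 8.90 in TGFB knockout cells and 6.80 to 7.17 in untreated knockout cells, a level that does not check the allele, since the disrupted part is not known here.

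Kit had its highest levels in TGFB cells that do not report Foxp3. It was 10.48, 10.77, 10.30, 10.24 and 9.99 in TGFB hCD2-negative cells of replicates 1 to 5, against 5.64, 5.58, 6.21, 5.61 and 6.61 in untreated reporter cells. In TGFB Foxp3-/- cells it was 10.24, 10.71 and 10.73, against 6.30, 6.16 and 6.59 in untreated Foxp3-/- cells. In both contrasts every TGFB array lay above every untreated array, by at least 3.38 in the reporter and 3.65 in the knockout. In bulk samples, a larger share of cells with a transcript and more transcript per cell cannot be told apart.

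The fitted log2 fold change of Kit was 4.43 ± 0.21 (SE) in TGFB hCD2-negative against untreated reporter cells, or 21.5-fold, with a 95% interval of 3.99 to 4.87. In TGFB against untreated Foxp3-/- cells it was 4.21 ± 0.27, or 18.5-fold, with an interval of 3.64 to 4.78. The 2 responses lay close together: the response of hCD2-negative cells minus that of knockout cells was 0.22 ± 0.34, with an interval of -0.51 to 0.94 (-0.21 within study 2). These values chose Kit and carry no test.

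TGFB hCD2-positive cells had an intermediate level of Kit. Their values were 8.58, 8.26, 7.78, 8.38 and 7.98 in replicates 1 to 5, and their mean of 8.20 ± 0.32 compared with 10.36 ± 0.29 in TGFB hCD2-negative cells and 5.93 ± 0.46 in untreated reporter cells (SD, n = 5 each). No array overlapped with either of the other groups: the gap was 1.17 to the untreated and 1.41 to the hCD2-negative arrays. Set against untreated cells, Kit in hCD2-positive cells was 4.81-fold higher (log2 fold change 2.27 ± 0.21, limma adjusted p = 1.41e-06), a contrast that shares its untreated arrays with the one that chose Kit. Set against hCD2-negative cells, it was 4.47-fold lower (log2 fold change -2.16 ± 0.21, limma adjusted p = 8.93e-05), a contrast that shares the hCD2-negative arrays with the choice. A choice for high hCD2-negative and low untreated levels favours these directions, so both p-values are not independent of it.

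Among the 14860 genes, calls were made at an adjusted p under 0.05. In hCD2-positive against untreated cells, 1.94% of genes were called higher and 9.66% lower, and 2 of the 4 genes described here were called, Kit and Cd7, both higher. Between the sorted fractions, 0.128% were called higher and 0.0269% (4 genes) lower in hCD2-positive cells. Kit was 1 of these 4, in a contrast that is not independent of its choice, and none of Kitl, Cd7 and Car2 was called. With either study alone the difference of Kit between the fractions kept its direction but not its call (log2 fold change -2.31, limma adjusted p = 0.0849 in study 1 and -1.94, adjusted p = 0.371 in study 2).

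**Figure D1:**
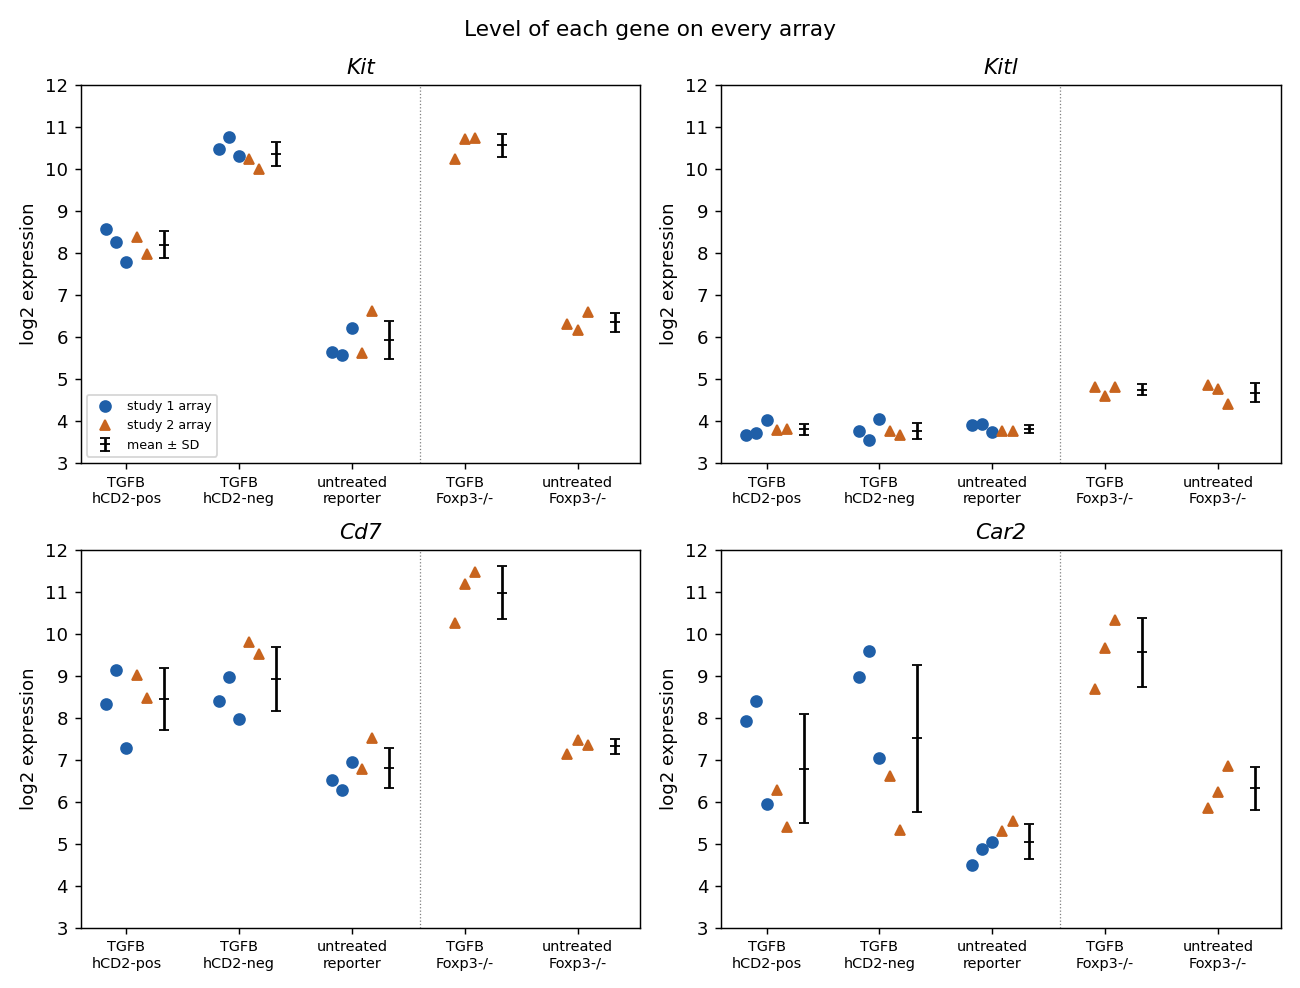
Log2 expression level of Kit, Kitl, Cd7 and Car2 on each of the 21 arrays (points), by group along the x axis, with the mean and SD of each group. Kit falls into separate bands in the 3 reporter groups, with means of 8.20 in TGFB hCD2-positive, 10.36 in TGFB hCD2-negative and 5.93 in untreated cells, whereas Kitl stays near 3.8 in all 3; the dotted line parts the genotypes, whose levels may not share a scale.

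A promoter window of Kit is shown because Kit had the largest fitted response of the 4 genes over all arrays in each TGFB contrast with untreated cells. The 250 bases before the gene start are from RefSeq (build GRCm38.p6, chr5:75574737-75574986, plus strand), and capitals mark the box GGGCGG, which the factor Sp1 is known to bind.
Kit promoter: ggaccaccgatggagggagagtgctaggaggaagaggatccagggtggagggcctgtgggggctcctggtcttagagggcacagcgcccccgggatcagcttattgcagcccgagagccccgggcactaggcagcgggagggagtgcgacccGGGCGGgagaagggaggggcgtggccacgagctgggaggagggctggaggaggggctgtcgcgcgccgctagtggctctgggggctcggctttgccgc
The box begins at position -98, counted back from the gene start, and 32.7% of 32851 promoter windows of this length hold it on either strand. The window is 70.8% G and C, against a median of 52.4% over all windows. Searched on both strands, it holds no match to the Smad element CAGAC (found in 42.2% of windows), the Runx site TGTGGT (14.0%), the E-box CANNTG (66.2%) or the TATA box TATAAA (12.4%). The GATA-factor sites AGATAA (10%), TGATAA (7.9%), AGATAG (7.7%) and TGATAG (6.4%) had no match either. A second RefSeq entry for Kit starts 4 bases downstream, and its window gave the same counts of each motif. A match or its absence describes only these letters in this window.

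Kitl, the ligand, was dim everywhere and did not pass the test in any contrast. It was 3.67, 3.71, 4.02, 3.78 and 3.82 in TGFB hCD2-positive cells, 3.77, 3.54, 4.04, 3.77 and 3.66 in TGFB hCD2-negative cells, and 3.90, 3.94, 3.73, 3.76 and 3.77 in untreated reporter cells. In Foxp3-/- cells it was 4.82, 4.60 and 4.82 with TGFB, against 4.85, 4.77 and 4.41 untreated. On all 21 arrays this was below the array's own lower quartile, and the groups overlapped in every contrast.

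The log2 fold change of Kitl was -0.02 (95% interval -0.25 to 0.21, limma adjusted p = 0.928) in hCD2-positive and -0.06 (-0.29 to 0.16, adjusted p = 0.705) in hCD2-negative against untreated cells. In TGFB against untreated Foxp3-/- cells it was 0.07 (-0.22 to 0.36, limma adjusted p = 0.99). Between hCD2-positive and hCD2-negative cells it was 0.04 (-0.18 to 0.27, limma adjusted p = 1). The TGFB response of Kitl in hCD2-positive and in hCD2-negative cells differed from that in knockout cells by -0.09 ± 0.18 and -0.13 ± 0.18 (limma adjusted p = 0.998 and 0.902). At a level this close to the array's floor, a fold change understates any difference in transcript.

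Cd7 was highest in TGFB Foxp3-/- cells. It was 10.26, 11.18 and 11.47 there, against 7.13, 7.47 and 7.35 in untreated Foxp3-/- cells, and the lowest TGFB array lay 2.79 above the highest untreated one. In TGFB hCD2-negative cells it was 8.39, 8.98, 7.97, 9.80 and 9.51, against 6.52, 6.28, 6.95, 6.77 and 7.52 in untreated reporter cells, with a gap of 0.45 between the groups. The fitted differences were 3.65 ± 0.40 (12.6-fold) in the knockout and 2.12 ± 0.31 (4.35-fold) in hCD2-negative cells, and as the contrasts of the choice they carry no test.

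In TGFB hCD2-positive cells Cd7 was 8.33, 9.13, 7.27, 9.01 and 8.47. The array of replicate 3, which has the narrowest range of values, lay below the highest untreated array at 7.52, and the other 4 lay above all untreated arrays. Against untreated cells, Cd7 in this fraction was 3.10-fold higher (log2 fold change 1.63 ± 0.31, limma adjusted p = 0.0018). This contrast shares its untreated arrays with the choice, so its p-value is not independent of the choice. With a single study the difference was alike, 1.66 in study 1 and 1.60 in study 2, but did not pass the test (limma adjusted p = 0.125 and 0.0833).

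Unlike Kit, Cd7 was not called different between the sorted fractions. Its mean was 8.44 ± 0.74 in hCD2-positive and 8.93 ± 0.76 in hCD2-negative cells (SD, n = 5 each), and the arrays overlapped. The log2 difference of hCD2-positive minus hCD2-negative cells was -0.49, with a 95% interval of -1.14 to 0.17 (limma adjusted p = 1), which does not show that the fractions are alike. The contrast of the fractions shares the hCD2-negative arrays with the choice. Whether the difference between the fractions itself differed between Kit and Cd7 was not tested.

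Over all arrays Car2, like Cd7, had its largest fitted difference in Foxp3-/- cells, and in each TGFB group it varied more between arrays than the other 3 genes. It was 8.69, 9.67 and 10.32 in TGFB Foxp3-/- cells, against 5.86, 6.24 and 6.86 in untreated Foxp3-/- cells, with a gap of 1.83. In TGFB hCD2-negative cells it was 8.98, 9.58, 7.05, 6.62 and 5.33, and in TGFB hCD2-positive cells 7.92, 8.39, 5.94, 6.29 and 5.39. Untreated reporter cells had 4.49, 4.87, 5.04, 5.31 and 5.55, and 2 of these 5 arrays were below the lower quartile. Replicate 5 of each TGFB fraction lay below the highest untreated array, so both fractions overlapped with untreated cells.

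The fitted difference of Car2 was 3.24 ± 0.79 (9.45-fold) in TGFB against untreated Foxp3-/- cells and 2.46 ± 0.61 (5.50-fold) in TGFB hCD2-negative against untreated reporter cells, given with no test. In hCD2-positive against untreated cells it was 1.73 ± 0.61 (3.33-fold, 95% interval 0.45 to 3.02), which missed the threshold (limma adjusted p = 0.0763). Without the hCD2-positive array of replicate 3 it was 2.08, with a limma adjusted p of 0.0393, and without the untreated array of replicate 5 it was 2.08, with an adjusted p of 0.0384. It also passed with array medians centred (1.86, limma adjusted p = 0.0316). In the other direction, the limma adjusted p was 0.139 with no study term, 0.19 without the untreated array of replicate 1 (1.46) and 0.148 without the hCD2-positive array of replicate 2 (1.43). With study 2 alone the difference was 0.41 (limma adjusted p = 0.825). Car2 in hCD2-positive minus hCD2-negative cells was -0.73 (-2.01 to 0.56, limma adjusted p = 1). Both tested contrasts share arrays with the choice of Car2, so their p-values are not independent of that choice.

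The reporter arrays of the 2 studies differed in Car2. In study 1, Car2 was higher by 3.74 in TGFB hCD2-negative and by 2.62 in TGFB hCD2-positive cells than in untreated cells, as differences of mean log2 levels (n = 3 each). In study 2 the same differences were 0.55 and 0.41 (n = 2 each). In the knockout arrays, which are all of study 2, the difference was 3.24. The change between studies of 3.19 in hCD2-negative cells had no larger counterpart among the 14860 genes, whose median absolute change was 0.15, and that of 2.21 in hCD2-positive cells had 1; Car2 was singled out for this after its values were seen. What differs between the studies is not given in the sources used here, and its part in the result was not tested.

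Kit and Cd7 moved less than Car2, but in hCD2-negative cells more than most genes. The change between studies there was 0.70 for Kit and -0.65 for Cd7, against a median absolute change of 0.15. Of the 14860 genes, 453 changed more than Kit and 583 more than Cd7. In hCD2-positive cells the change was 0.33 for Kit (2980 genes changed more) and 0.07 for Cd7 (11478). For hCD2-negative against untreated cells, Kit differed by 4.71 in study 1 and 4.01 in study 2, and Cd7 by 1.86 and 2.51. For hCD2-positive against untreated cells, Kit differed by 2.40 in study 1 and 2.07 in study 2. Cd7 thus had the larger difference in study 2 and Car2 in study 1, in the same hCD2-negative arrays.

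**Figure D2:**
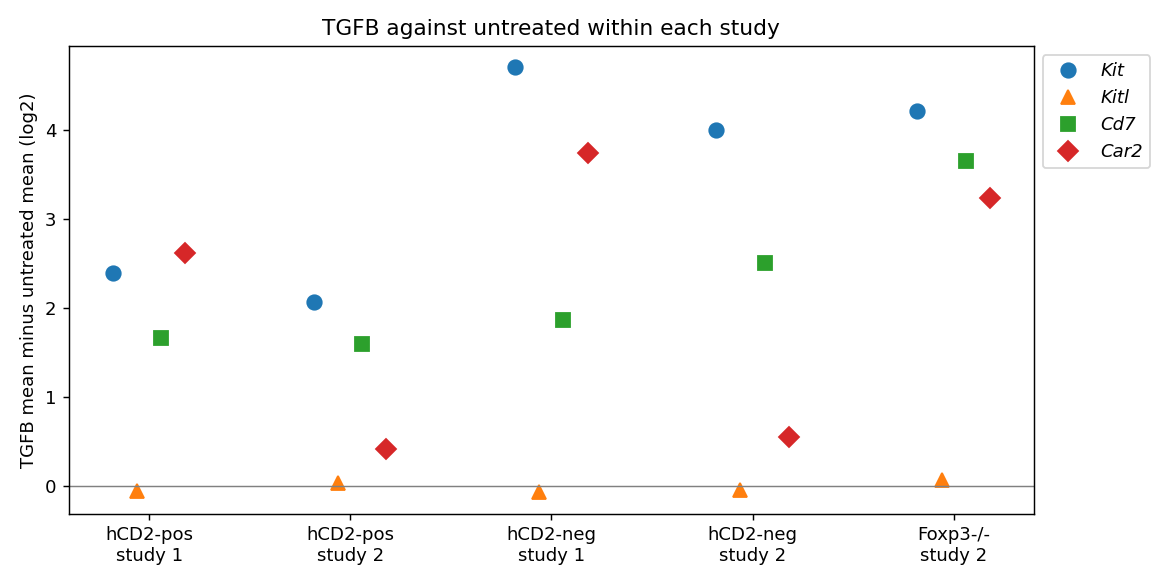
Difference of mean log2 level, TGFB minus untreated, for each gene within each labelled study (x axis: each TGFB fraction of the reporter cells in study 1 and in study 2, and the knockout in study 2). Car2 drops to 0.55 and 0.41 in the reporter cells of study 2 while its difference in the knockout cells of study 2 is 3.24; Kit stays above 2 throughout and Kitl near 0.

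Set as percentiles among all 23332 clusters of the same array, Kit averaged 97.8 ± 0.4 in TGFB Foxp3-/- cells (SD, n = 3) and 98.4 ± 0.8 in TGFB hCD2-negative cells (n = 5), so it was near the top of the array in both. Its mean percentile was 84.1 ± 4.3 in TGFB hCD2-positive cells, against 41.8 ± 8.5 in untreated reporter and 37.3 ± 3.3 in untreated Foxp3-/- cells. Neighbours in this order that did not differ beyond their spread were the first pair and the last pair. Cd7 averaged 98.5 ± 0.9 in TGFB Foxp3-/- cells, 92.3 ± 3.8 in hCD2-negative and 86.6 ± 5.0 in hCD2-positive cells. Its lowest TGFB Foxp3-/- array, at 97.5, was barely above the highest hCD2-negative array, at 97.4. Untreated cells were alike in Cd7, with 58.0 ± 5.1 in Foxp3-/- and 57.3 ± 7.7 in reporter cells.

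Car2 ran from 92.2 ± 5.1 in TGFB Foxp3-/- cells through 70.6 ± 26.9 in hCD2-negative and 57.8 ± 21.7 in hCD2-positive cells, against 36.8 ± 8.6 in untreated Foxp3-/- and 25.9 ± 6.6 in untreated reporter cells. The 2 sorted fractions did not differ beyond their spread. Kitl had its highest mean percentile, 14.8, in TGFB Foxp3-/- cells.

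**Figure D3:**
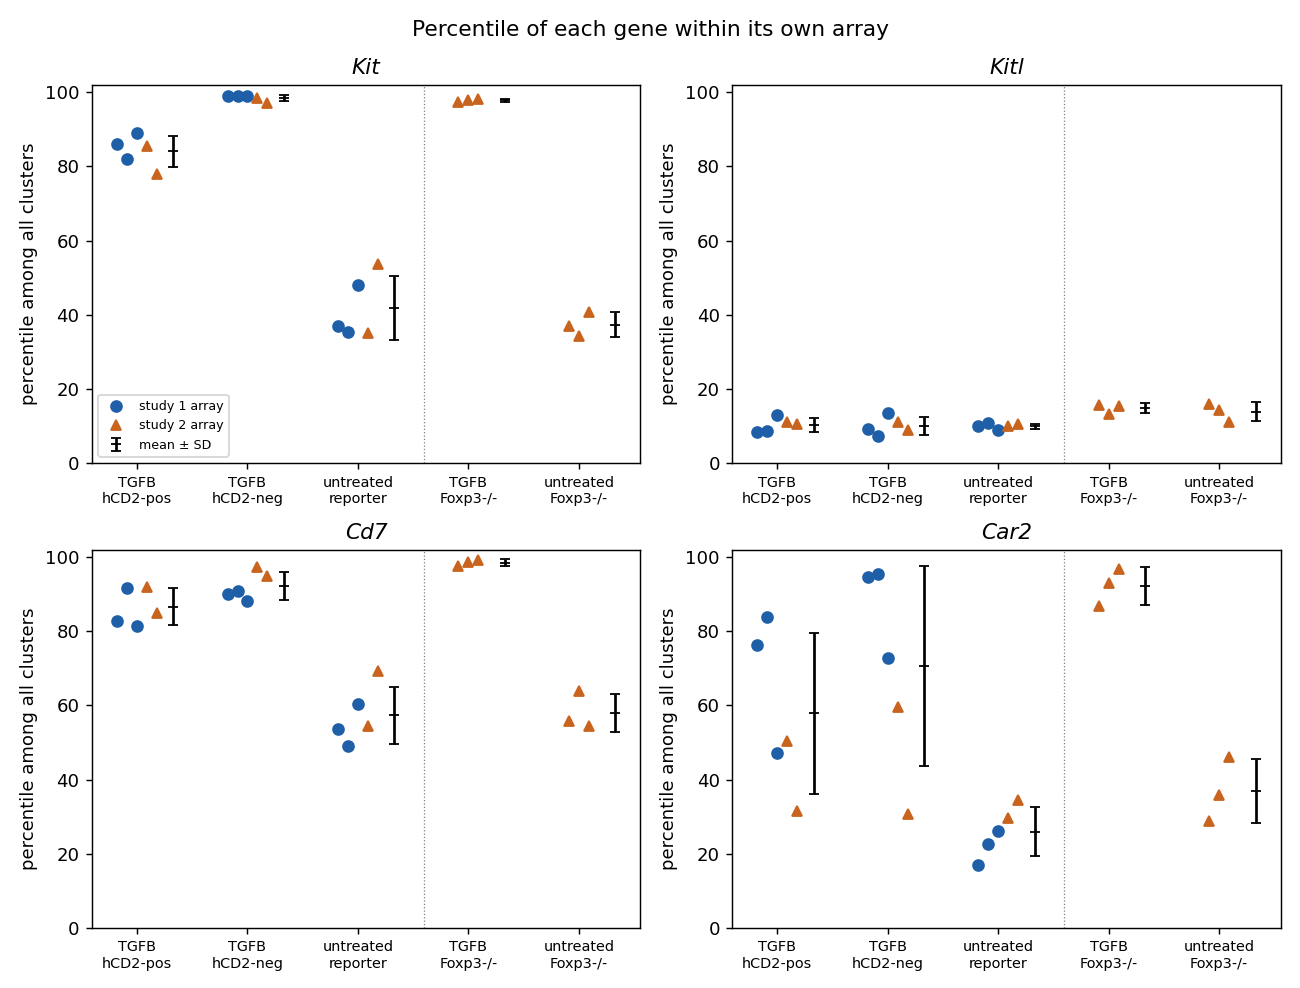
Percentile of each gene's cluster among all clusters of its own array (y axis, 0 to 100), by group, with points for arrays and the mean and SD. Kit and Cd7 reach the top few percent in TGFB Foxp3-/- cells (means 97.8 and 98.5), and Car2 in TGFB hCD2-negative cells spreads over most of the scale (70.6 ± 26.9).

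The responses of the 2 genotypes stand side by side as follows, with no test for the genes chosen on them. The hCD2-positive response minus the knockout response was -1.94 ± 0.34 for Kit, -2.02 ± 0.51 for Cd7 and -1.51 ± 1.00 for Car2 on the log2 scale. The hCD2-negative response minus the knockout response was 0.22 ± 0.34 for Kit, -1.53 ± 0.51 for Cd7 and -0.78 ± 1.00 for Car2. All knockout arrays are of study 2, and with the reporter arrays of study 2 alone these values moved. The hCD2-positive difference minus the knockout difference was then -2.14 for Kit, -2.06 for Cd7 and -2.83 for Car2. The hCD2-negative difference minus the knockout difference was -0.21 for Kit, with the sign turned, -1.14 for Cd7 and -2.70 for Car2. The 2 differences of each gene share the knockout and the untreated reporter arrays.

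**Figure D4:**
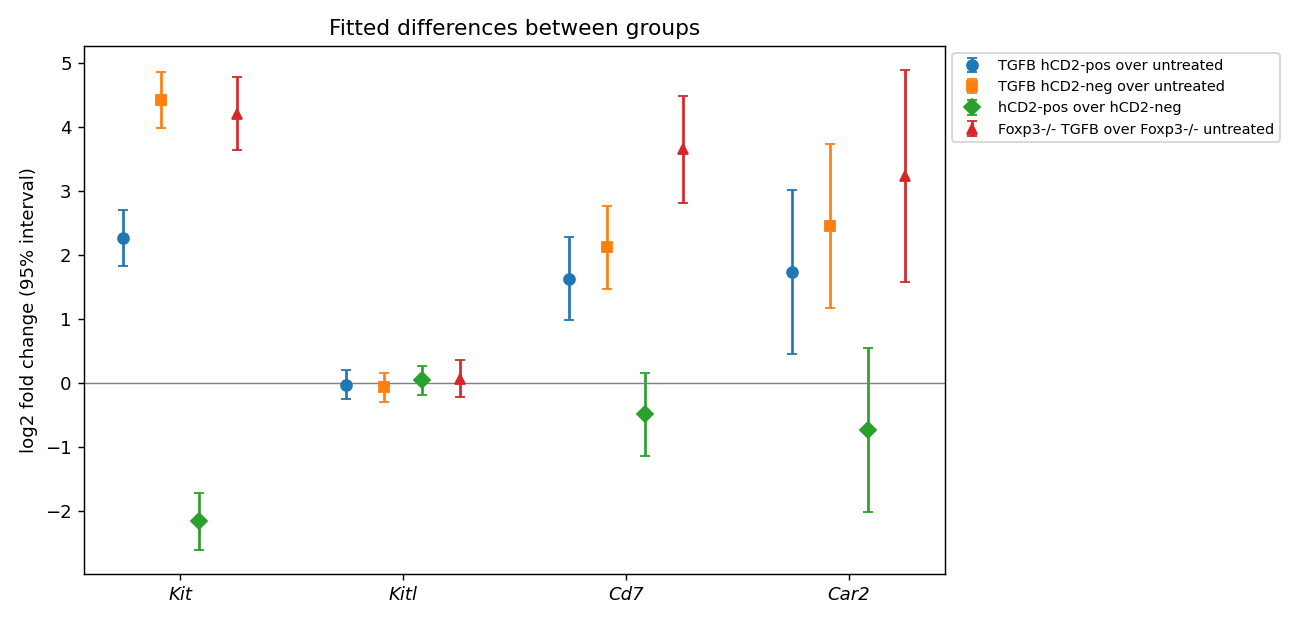
Fitted log2 fold change of each gene in 4 contrasts, with 95% intervals (y axis). Kit has 4.43 in TGFB hCD2-negative and 2.27 in TGFB hCD2-positive against untreated reporter cells and 4.21 in the knockout, with narrow intervals. Those of Car2 are wide, and those of Kitl, which was not chosen for its values, all include 0. The hCD2-negative and knockout contrasts with untreated cells chose Kit, Cd7 and Car2, so their intervals there carry no test.

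Genes that act downstream of Kit were mostly not called, and those called were mainly lower with TGFB. Of 35 listed genes, 27 had a cluster of their own. In hCD2-positive cells 1 was called higher and 4 lower, and in Foxp3-/- cells 3 were called lower. In hCD2-negative cells 6 were called lower. Over all genes the shares called were 1.94% higher and 9.66% lower in hCD2-positive, 2.05% higher and 16.9% lower in hCD2-negative, and 0.895% higher and 1.85% lower in knockout cells. The list's median log2 fold change was -0.22, -0.38 and -0.01 in these contrasts, against -0.07, -0.09 and -0.03 for all genes.

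Gab2, a scaffold that couples Kit to phosphoinositide 3-kinase, was lower in all 3. Its log2 fold change was -1.71 in hCD2-positive (limma adjusted p = 5.08e-05), -2.09 in hCD2-negative (3.55e-06) and -1.50 in knockout cells (0.00508). Sos1, which loads Ras with GTP, had -1.33, -1.38 and -1.34 in the same order, and Dok2, an adaptor that dampens Ras signalling, had -0.99, -1.61 and -1.47, with limma adjusted p of at most 0.0161. Socs1, an inhibitor of cytokine and Kit signalling, had -1.27 in hCD2-positive and -1.76 in hCD2-negative cells (limma adjusted p = 0.00636 and 0.0003). The gene called higher was Src, a membrane-bound kinase, with 0.37 in hCD2-positive cells (limma adjusted p = 0.0353, or 0.0519 with the replicate number as a block).

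The counts of higher genes on this list depended on the arrays and on scaling. Without the 4 arrays of narrow range, 4 of the 27 were called higher in hCD2-positive cells, where 475 of all 14860 genes were. After quantile normalization, 8 of the 27 were called higher in hCD2-positive cells, 8 in hCD2-negative cells and 7 in knockout cells. Of all 14860 genes, 1247, 1676 and 858 were called higher after it in the same order. That scaling moved the median of all genes to 0.03 in hCD2-positive and 0.05 in hCD2-negative cells, and the lower share of all calls to 52.7% and 50.7%, against 83.2% and 89.2% in the deposited values. Gab2, Sos1 and Dok2 remained lower under it in all 3 contrasts.

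Among 9 relatives of Kit and Kitl, class III receptors and their ligands, 1 was called higher and 2 lower in hCD2-positive, 2 lower in hCD2-negative and 1 lower in knockout cells. The shares of all genes were 1.94% higher and 9.66% lower, 16.9% lower, and 1.85% lower in the same contrasts. The relative called higher was Pdgfb, which encodes a platelet-derived growth factor chain, at 0.95 on the log2 scale (limma adjusted p = 0.00198). Csf1, the ligand of the macrophage receptor Csf1r, was lower in hCD2-negative cells with -0.75 (limma adjusted p = 0.000802) and in knockout cells with -0.80 (0.0159). Flt3l, the ligand of Flt3, was lower in hCD2-negative cells with -1.02 (limma adjusted p = 0.00288). Flt3 itself, a receptor of early progenitors, had 0.19 in hCD2-positive cells, 0.13 in hCD2-negative cells and -0.06 in knockout cells (limma adjusted p = 0.206, 0.335 and 0.99).

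Factors known to regulate Kit in blood cells were measured for 10 of 11 listed genes, and limma called 1 lower in hCD2-positive, 2 lower in hCD2-negative and 1 lower in knockout cells. It called 0 higher, where the share of all genes called higher, 1.94%, 2.05% and 0.895%, is also small. The share of all genes called lower was 9.66%, 16.9% and 1.85% in the same order. At an unadjusted p under 0.05, 2 of the 10 passed in each TGFB reporter fraction against untreated cells and 1 in the knockout, all with a lower level. Myb, a factor of progenitor cells, had a log2 fold change of -1.33 in hCD2-positive (limma adjusted p = 0.00747) and -1.68 in knockout cells (0.0241). Runx1 and Gata1, factors of early blood cells, had -0.79 and -0.44 in hCD2-negative cells (limma adjusted p = 0.0189 and 0.0174), and neither passed after quantile normalization (-0.27, adjusted p = 0.158 and -0.25, adjusted p = 0.141). Without the 4 reporter arrays of narrow range (2 hCD2-negative arrays left) they had -0.53 and -0.51 (limma adjusted p = 0.273 and 0.0514).

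Among surface glycoproteins of T and NK cells, the class to which CD7 belongs, 17 of 18 were measured. In hCD2-positive cells 4 were called higher and 2 lower, in hCD2-negative cells 3 higher and 5 lower, and in knockout cells 2 higher. Without the 4 arrays of narrow range, 2 were lower in hCD2-negative cells, where 715 of all 14860 genes were. Over all arrays the shares of all genes were 1.94% higher and 9.66% lower, 2.05% higher and 16.9% lower, and 0.895% higher in the same 3 contrasts. Cd96, an adhesion receptor of T and NK cells, was higher in all 3, with 0.84, 1.15 and 1.36 on the log2 scale (limma adjusted p = 0.00944, 0.000546 and 0.00547). Slamf6, a self-binding receptor of lymphocytes, was higher in hCD2-positive and hCD2-negative cells with 1.63 and 1.41 (limma adjusted p = 0.000982 and 0.00225). Slamf7, a relative of Slamf6, was lower with -2.81 and -1.94 (limma adjusted p = 3.91e-05 and 0.000781). Cd160 was higher in knockout cells with 1.85 (limma adjusted p = 0.00256) and in hCD2-negative cells with 0.89 (0.0175). Without the 4 arrays of narrow range, Cd160 had 1.07 in the 2 hCD2-negative arrays left (limma adjusted p = 0.0783).

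Of the known partners of CD7, Sectm1a and Sectm1b were measured. Sectm1b had 0.21 in hCD2-positive cells, 0.28 in hCD2-negative cells and 0.15 in knockout cells (limma adjusted p = 0.39, 0.18 and 0.951). Sectm1a had -0.13, -0.05 and -0.24 (limma adjusted p = 0.666, 0.86 and 0.876). Neither passed the test.

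Of 15 other carbonic anhydrases listed, 14 were measured: 1 was called higher and 2 lower in hCD2-positive, 3 lower in hCD2-negative and 1 lower in knockout cells. The shares of all genes were 1.94% higher and 9.66% lower, 16.9% lower, and 1.85% lower in the same contrasts. Car12, a membrane-bound form, had -1.24 in hCD2-positive and -1.09 in hCD2-negative cells (limma adjusted p = 0.00242 and 0.00452). Car5b, a mitochondrial form, had -1.11 in knockout cells (limma adjusted p = 0.0108) and -0.60 in hCD2-negative cells (0.0251). Car15 was the form called higher, with 0.47 in hCD2-positive cells (limma adjusted p = 0.032). Without the 4 reporter arrays of narrow range (2 hCD2-negative arrays left), none of the lower calls in hCD2-negative cells was kept. Car12 then had -0.89 there (limma adjusted p = 0.181).

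Of 12 listed genes of bicarbonate, lactate and proton transport, 9 were measured. Hvcn1, a voltage-gated proton channel, was higher in hCD2-negative cells with 0.94 and in knockout cells with 1.41 (limma adjusted p = 0.0094 and 0.0134). Slc16a3, an exporter of lactate and protons, was lower with -1.64 in hCD2-positive and -1.96 in hCD2-negative cells (limma adjusted p = 0.00189 and 0.000263). In knockout cells it had -0.35 (limma adjusted p = 0.934).

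Slc16a3 is also a near neighbour of Cd7 on chromosome 11. By the order of protein-coding genes in RefSeq (GRCm38.p6), Csnk1d and Sectm1b flank Cd7, and both missed the threshold in each contrast. Kit lies on chromosome 5 between the related receptors Pdgfra and Kdr. Pdgfra had 0.08 in hCD2-positive cells, 0.09 in hCD2-negative cells and -0.07 in knockout cells, and Kdr had 0.12, 0.09 and 0.003 (limma adjusted p between 0.324 and 0.998). Car2 lies on chromosome 3 next to Car3, the muscle form, which had 0.01, 0.02 and -0.01, and near Car13, which had -0.48 in hCD2-positive cells (limma adjusted p = 0.0311, and 0.114 with array medians centred). Near Kitl on chromosome 10, Dusp6, a phosphatase that acts on ERK kinases, was lower in all 3, with -1.50, -1.59 and -1.43 (limma adjusted p = 0.00053, 0.000205 and 0.0166). Neighbours were named for their position after the members' values were seen.

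**Figure D5:**
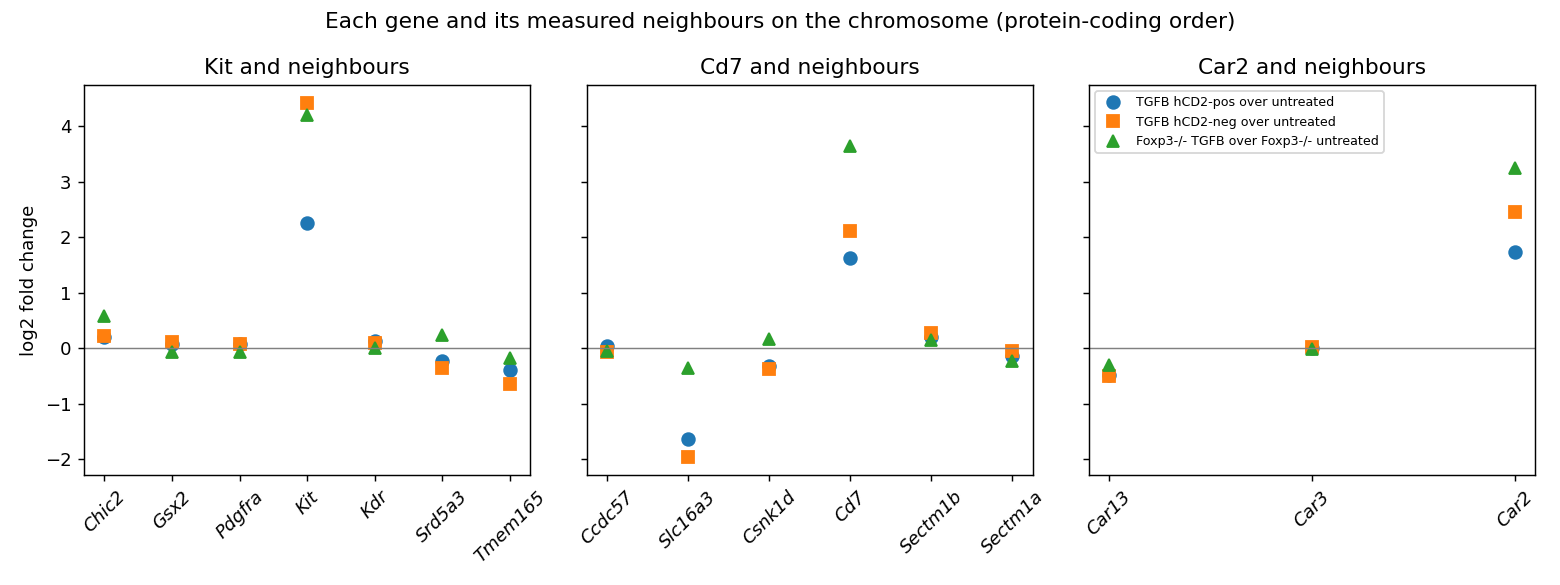
Log2 fold change (y axis) of Kit, Cd7 and Car2 and of the measured protein-coding genes next to each on its chromosome, in order along the x axis, for the 3 contrasts of TGFB with untreated cells. Each of the 3 genes stands above its neighbours, such as Pdgfra (0.08) and Kdr (0.12) beside Kit (2.27) in TGFB hCD2-positive cells, and Slc16a3 near Cd7 lies below 0. The 3 genes were chosen for their rise with TGFB and the neighbours were not, so this follows at least partly from the choice. Beside Car2 only Car13 and Car3, both on the same side, were measured.

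Over the 15 reporter arrays, the genes whose levels followed Kit most closely were Itgae (Pearson r = 0.906), Adh1 (0.897), Cd8a (0.871), Dtx4 (0.868) and Ikzf2 (0.856). Over the 6 knockout arrays their r with Kit was 0.997, 0.862, 0.982, 0.929 and 0.995. These points share arrays and fall into groups with and without TGFB, so the correlations only describe the pattern. Itgae encodes CD103, the integrin chain that binds E-cadherin, and Ikzf2 encodes Helios, a transcription factor. Itgae had log2 fold changes of 3.37 in hCD2-positive and 3.85 in hCD2-negative cells, and Ikzf2 had 3.06 and 3.04.

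Cd8a, a chain of the CD8 co-receptor, had the same order of means as Kit among the 3 reporter groups. As it was named above for its correlation with Kit over the reporter arrays, this order there partly follows from that choice. Its p-values in the reporter contrasts are not independent of it either. Cd8a is also among the markers listed beforehand. Cd8a was not called in hCD2-positive against untreated cells (0.69, limma adjusted p = 0.117) and was higher by 2.44 in hCD2-negative cells (6.82e-06) and 2.47 in knockout cells (0.000386). In hCD2-positive against hCD2-negative cells it was lower, with -1.76 (limma adjusted p = 0.00583), and without the 4 arrays of narrow range -1.81 did not pass (0.177). Its partner Cd8b1 was not higher with TGFB: it had -0.95 in hCD2-positive (limma adjusted p = 0.00416), -0.74 in hCD2-negative (0.0152, or 0.165 after quantile normalization) and -0.20 in knockout cells (0.952).

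The genes most like Cd7 were Olfml3 (r = 0.927 over the reporter arrays and 0.929 over the knockout arrays), Neurl3 (0.923 and 0.959), Ttyh3 (0.918 and 0.928), Ldlrad4 (0.907 and 0.984) and Xcl1 (0.906 and 0.988). Ldlrad4 is known as an inhibitor of TGFB signalling, and Xcl1 encodes the chemokine lymphotactin. Like Cd7, Xcl1 had a larger difference in study 2 than in study 1 in hCD2-negative cells, 3.45 and 1.68, and the largest in knockout cells, 3.96.

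Those most like Car2 were Acvr2a (r = 0.903 and 0.996), Clec4b2 (0.866 and 0.187), Hpgds (0.828 and 0.993), Gimap4 (0.816 and 0.926) and Olfr1213 (0.811 and 0.733). Acvr2a encodes an activin receptor, and Hpgds the haematopoietic prostaglandin D synthase. Neither split between the studies as far as Car2 did: in hCD2-negative against untreated cells Acvr2a differed by 2.26 in study 1 and 1.36 in study 2, and Hpgds by 2.22 and 0.73.

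Markers of other cells that carry Kit, CD7 or carbonic anhydrase II were followed on the same arrays. Of 11 mast cell markers 9 were measured, and their mean log2 level was 4.48 to 4.81 in hCD2-positive, 4.46 to 4.76 in hCD2-negative and 4.52 to 4.61 in untreated reporter cells. In Foxp3-/- cells it was 5.33 to 5.35 with TGFB, against 5.35 to 5.45 untreated. Mcpt1, Mcpt2, Fcer1a and Ms4a2, which encode mast cell proteases and parts of the IgE receptor, were below the lower quartile on every array. The 1 mast cell gene called, Cpa3, was lower in TGFB knockout cells (-0.77, limma adjusted p = 0.0105), where 1.85% of all genes were called lower. In hCD2-positive and hCD2-negative cells 1.94% and 2.05% of all genes were called higher and 9.66% and 16.9% lower.

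Of 11 erythroid markers 6 were measured, with means of 5.19 to 5.32 in hCD2-positive, 5.03 to 5.38 in hCD2-negative and 5.08 to 5.25 in untreated reporter cells. They were 5.89 to 6.02 in TGFB Foxp3-/- cells and 5.86 to 5.98 in untreated Foxp3-/- cells. Klf1 and Rhag, of the red cell lineage, were below the lower quartile on every array. The erythroid genes called were Epb42, a membrane protein of red cells, with 0.28 in hCD2-positive cells (limma adjusted p = 0.0448), and Gata1 as given above. Of the 7 measured progenitor markers and the 6 basophil markers, limma called 0 in any TGFB contrast with untreated cells. At an unadjusted p under 0.05 there were 0 progenitor markers and 1 basophil marker, in the knockout, where 1685 of all 14860 genes passed. Over all genes the shares called were 1.94% higher and 9.66% lower in hCD2-positive cells. They were 2.05% and 16.9% in hCD2-negative cells, and 0.895% and 1.85% in knockout cells.

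Some markers that innate lymphoid cells and intraepithelial lymphocytes share with T cells were called with TGFB, some higher and some lower. Of 6 measured innate lymphoid markers, 2 were higher and 2 lower in each TGFB contrast with untreated cells. The shares of all genes called were 1.94% higher and 9.66% lower in hCD2-positive cells. They were 2.05% and 16.9% in hCD2-negative cells, and 0.895% and 1.85% in knockout cells. Il18r1, a chain of the interleukin-18 receptor, was higher, with 1.92, 1.54 and 2.24 in the reporter fractions and the knockout in that order, and Rora, a nuclear receptor, with 0.68, 0.61 and 1.42. Id2 and Gata3, factors of innate lymphoid and T cells, were lower, Id2 with -2.83, -2.32 and -2.13 and Gata3 with -1.35, -2.22 and -1.91. The limma adjusted p of these 4 genes was at most 0.0483. The mean level of this list was 7.82 to 8.96 in hCD2-positive, 7.89 to 9.21 in hCD2-negative and 8.46 to 9.16 in untreated reporter cells, and 8.90 to 9.19 in TGFB against 8.80 to 9.42 in untreated knockout cells.

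Of 14 intraepithelial lymphocyte markers, 1 was higher and 2 lower in hCD2-positive, 4 higher and 4 lower in hCD2-negative, and 3 higher in knockout cells. The shares of all genes were 1.94% higher and 9.66% lower, 2.05% higher and 16.9% lower, and 0.895% higher in the same contrasts. Without the 4 arrays of narrow range, 2 markers were higher and 2 lower in hCD2-negative cells, where 295 and 715 of all 14860 genes were. The mean level of these markers was 6.38 to 7.21 in hCD2-positive, 7.0 to 7.92 in hCD2-negative and 7.21 to 7.73 in untreated reporter cells. It was 8.33 to 9.02 in TGFB against 7.89 to 8.72 in untreated knockout cells. Itgae was higher in all 3 (limma adjusted p of at most 2.52e-05), while Gzma and Gzmb, which encode granzymes of cytotoxic cells, were lower in both reporter fractions, with -5.25 and -5.27 in hCD2-positive and -2.17 and -4.94 in hCD2-negative cells (limma adjusted p of at most 0.00171). Of 6 measured NK markers 2 were lower in hCD2-positive and 1 in each of hCD2-negative and knockout cells. The shares of all genes called lower there were 9.66%, 16.9% and 1.85%. Ncr1 was below the lower quartile on every array. The part of other cell types in the levels of Kit, Cd7 and Car2 was not tested.

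The T cell markers Cd3e and Cd4 were not called in any TGFB contrast. Cd3e had 0.25, 0.30 and 0.81 in hCD2-positive, hCD2-negative and knockout cells (limma adjusted p = 0.469, 0.318 and 0.127), and Cd4 had -0.37, -0.51 and -0.03 (0.314, 0.117 and 0.996). Of the 11 measured T cell markers, limma called 1 higher in hCD2-positive cells, 1 lower in hCD2-negative cells and 0 in knockout cells. In the same order, the shares of all genes were 1.94% higher and 9.66% lower, 2.05% and 16.9%, and 0.895% and 1.85%. Cd5 was the marker called higher, with 1.40 (limma adjusted p = 0.00316). Thy1 was the marker called lower, with -1.11 (limma adjusted p = 0.00355, or 0.0663 without the narrow reporter arrays). The 11 markers had a mean level of 9.12 to 10.90 over all arrays, well above the array medians.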

How the data were processed

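Total RNA from frozen pellets of sorted cells was labelled and hybridised to 21 Affymetrix mouse exon arrays, 1 per sample. Per the submitters' processing notes, the authors used Affymetrix Expression Console 1.2 with RMA and genome build mm8; the deposited table gives log2 levels. The table holds 23332 transcript clusters; 0 of its columns belonged to other samples. An annotation table of the array gave 1 gene symbol to 14996 clusters, several to 1019 and none to 7317. Symbols were checked against RefSeq (14941 matched, 0 changed), and for 135 genes with several clusters the one with the highest mean was kept, leaving 14860 genes. Lower quartiles were 4.93 to 5.02 on reporter and 5.61 to 5.68 on knockout arrays.

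limma 3.58.1 in R 4.3.3 fitted 5 group means and the labelled study number to all 21 arrays, with 2-sided moderated tests and Benjamini-Hochberg adjustment over the 14860 genes. Values with ± are standard errors unless marked SD, and fold changes are relative to the deposited scale. No label ties a biological replicate to an animal or culture, so the p-values reflect only how these samples vary. Arrays give no read depth; their number limits the precision. The fit was tested on simulated data.

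The 4 genes and all gene lists were chosen with earlier results of these data known. Named beside the 4 genes were the Foxp3 cluster, the 5 genes most correlated with each of Kit, Cd7 and Car2 over the reporter arrays (predicted genes and receptor gene segments set aside), up to 4 called members per list and direction, all members of lists of 3 or fewer, and defining markers of other cells; not all are given values. Alternatives were no study term, a replicate block, quantile normalization, centred array medians, a share of 0.333 of dimmest genes left out, a trended and robust prior, array weights, each study alone, all clusters, the compared arrays alone, the 4 narrow reporter arrays left out, and each array left out in turn. Leaving the narrow arrays out of the list counts was chosen after seeing the data.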

Additional observations from a re-analysis of the deposited data

How the results depend on the processing

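Counts of called genes depended on the settings. Against 1725 genes in TGFB hCD2-positive and 2811 in TGFB hCD2-negative against untreated cells, study 1 alone gave 279 and 532 and study 2 alone 208 and 441. Quantile normalization gave 2638 and the compared arrays alone 1127 in the first, and array weights 5817 and leaving out the narrow arrays 1010 in the second. The 23 genes between the fractions became 11 with no study term, 136 with quantile normalization, 56 with centred medians, 3489 with array weights, 9 without the narrow arrays and 4 with the compared arrays alone. Each study alone gave 0 by limma, against 620 at an unadjusted p under 0.05 in all arrays. In the knockout, 408 became 254 with no study term, 1612 with quantile normalization, 656 with centred medians, 1508 with array weights and 712 without the narrow reporter arrays (the 3 narrow knockout arrays stay in). Leaving out each array in turn gave 1218 to 2065, 1817 to 3999, 15 to 88 and 221 to 623 in these 4 contrasts. Counts moved by over 1.5 times without hCD2-negative replicate 3 or 4 (1857 and 1817 in the second contrast), without hCD2-positive replicate 1 or 3 (15 and 88 between the fractions, and 623 in the knockout without replicate 3), and without any TGFB knockout array or untreated knockout replicate 3 (221 to 266 in the knockout).

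Kit changed its value beyond the spread in hCD2-negative cells with study 2 alone (4.01) and in the knockout with quantile normalization (4.51), and lost its call between the fractions with study 1 (-2.31) or study 2 alone (-1.94). Cd7 lost its call in hCD2-positive cells with study 1 (1.66) or study 2 alone (1.60). Car2 gained a call there with centred medians (1.86), array weights (1.98) and without the narrow arrays (2.08), and its hCD2-negative difference was 3.74 with study 1 and 0.55 with study 2. The smaller number of arrays in each study lowers what can be called; other causes were not tested. With each array left out in turn, Kit ranged from 2.17 to 2.47, 4.32 to 4.63, -2.26 to -2.05 and 4.12 to 4.37, Cd7 from 1.37 to 1.86 in hCD2-positive cells, and Car2 from 1.43 to 2.08 there, 2.04 to 2.88 in hCD2-negative and 2.86 to 3.68 in knockout cells. Kitl ranged from -0.22 to 0.16 and was called in none of these 21 fits; it was among the genes left out with the dimmest.

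Same-numbered arrays correlated, as deviations from group means, with r of 0.147 to 0.512, 0.117 to 0.386, 0.098 to 0.80 and -0.182 to 0.58. With study removed, r was -0.109 to 0.004, -0.263 to 0.046, -0.30 to 0.729 and -0.182 to 0.58: same-numbered sorted fractions deviated together in 4 of 5 pairs, and 1 pair ran the other way. Replicates 4 and 5 had the same r of 0.603 by construction, as study 2 has 2 arrays per reporter group, so they count as 1 value. From group means, the sorted fractions missed 0.1 only in replicate 1, with 0.098. As not every pair passed 0.1, the numbers were not taken to pair the arrays, and a fit with the replicate block stands beside. With the replicate number as a block, 1982, 3388, 26 and 516 genes were called, and each tested value of Kit, Cd7, Car2 and Kitl stayed on its side of the threshold (Kit 2.27 in hCD2-positive cells). Of 152 list counts, 38 moved with quantile normalization, 11 with the block and 28 without the narrow arrays. Signals near the array floor (Kitl, and Car2 untreated) limit fold changes.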
